A study of Mus musculus with 56 samples.

Results

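Kidneys of mice late in their food window were compared between the light and the dark phase. The comparison set daytime-restricted feeding (DRF) at zeitgeber time (ZT) 8 against nighttime-restricted feeding (NRF) at ZT20, where ZT counts hours from lights on. The members were 8 libraries, 4 for DRF ZT8 and 4 for NRF ZT20, chosen by regimen and time from 56 libraries in 14 groups. The mice were adult female C57BL/6J, 9 weeks old at collection, kept on 12 h of light and 12 h of dark, and given food by day or by night for 7 days. All groups were under restricted feeding, and each value came from RNA of 1 whole kidney sample rather than of a cell type. ZT20 lies 8 h after dark onset as ZT8 lies 8 h after lights on, so the groups were 12 h apart by the light cycle and matched by the time elapsed since the phase with food began. The exact hours of food are not given in the sources used here.

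A pair of fasting-induced transcripts averaged less late in the meal than late in the fast. Pdk4, which encodes a kinase that shuts pyruvate out of oxidation during fasting, averaged 9.7 TPM (a transcript level per gene length, scaled to a common total per library) in DRF ZT8 and 27.3 TPM in NRF ZT20, against 92.6 TPM in NRF ZT8 and 308 TPM in DRF ZT20, which lie late in the fast. Angptl4, a fasting-induced inhibitor of lipoprotein lipase that was picked after its values were seen, averaged 5.75 and 9.92 TPM late in the meal and 89.8 and 85.4 TPM late in the fast.

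In the mammalian clock, CLOCK or NPAS2 pairs with BMAL1 (Arntl) and activates E-box genes, among them Per, Cry, Nr1d1, Nr1d2 and Dbp. PER and CRY proteins then repress the pair, while the REV-ERB proteins (Nr1d1, Nr1d2) repress and the ROR proteins activate Arntl. DBP, TEF and HLF activate D-box genes that NFIL3 represses. Clocks of peripheral organs follow both light, by way of the brain, and the time of food, and renal transport of water, salt and solutes follows a daily rhythm.

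Library sizes inferred from the deposited values were even, at 24.77 to 28.85 M reads over the series. Reads recovered from those values summed to 24.91 to 27.55 M per library. Both are lower than the read numbers per sample that the paper reports. Summed adipose tissue markers stood at 0.686 to 1.62 TPM in DRF ZT8, but at 177 and 463 TPM in NRF ZT20 replicates 1 and 2 and at 2.07 and 1.22 TPM in replicates 3 and 4. Results were therefore also computed without every library above 100 TPM for those markers, which left 2 NRF ZT20 libraries, and the calls that ended there are given below by gene or by list. Kidney markers were present throughout, proximal tubule markers summing to 3894 to 5292 TPM and 3985 to 5511 TPM. Markers of podocytes, the S3 segment, the thick ascending limb, the distal convoluted tubule, intercalated cells, inner medulla, endothelium, liver, blood and urothelium overlapped between the groups, and those of the adrenal gland, pancreas and skeletal muscle stayed at or under 5.22 TPM. Lists that did not overlap were principal cell markers, at 1448 to 1727 TPM in DRF ZT8 and 863 to 982 TPM in NRF ZT20, and immune markers, at 661 to 751 and 533 to 591 TPM, of which 1, Ptprc, was called. In what follows, values before "against" belong to DRF ZT8 replicates 1 to 4 and values after it to NRF ZT20 replicates 1 to 4, and a positive log2 difference means higher in DRF ZT8. In bulk tissue, fewer cells of a type and less RNA per cell cannot be told apart.

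Of 13358 genes tested, 1905 (14.3%) differed between DRF ZT8 and NRF ZT20 at an adjusted p under 0.05, 1159 (8.68%) higher and 746 (5.58%) lower in DRF ZT8. Most differences were small, since 309 of the calls reached 1.5-fold and 81 reached 2-fold, of which 29 were higher and 52 lower. The median log2 difference over all genes was 0.019. The split by direction rested on the scaling, because median-of-ratios scaling gave 1075 higher and 1192 lower, and the study's library sizes 1078 and 1143. Without the libraries holding adipose markers 884 genes were called, 603 higher and 281 lower. The 4 values of one group all lay above or all below those of the other for 3206 genes (24%), 1882 (14.1%) higher and 1324 (9.91%) lower in DRF ZT8.

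**Figure D1:**
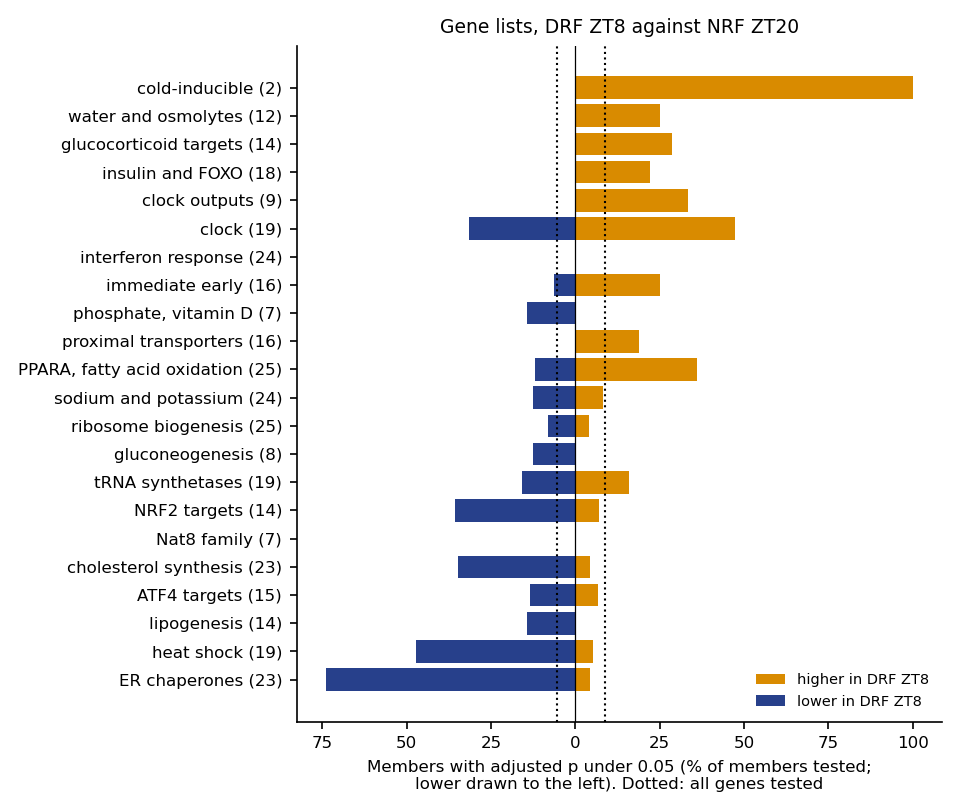
Percent of the members tested in each gene list (number tested in brackets) with an adjusted p under 0.05, higher in DRF ZT8 drawn to the right and lower drawn to the left, ordered by the median log2 difference of the list. The dotted lines mark the share of all genes tested, 8.68% higher and 5.58% lower. The ER chaperones reach farthest left with 17 of 23 lower, and the clock list has 9 of 19 higher and 6 lower.

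Core clock genes gave some of the widest differences. Of 19 clock genes tested, 9 were higher and 6 lower in DRF ZT8, against the 8.68% and 5.58% of all genes, with a median log2 difference of 0.147 against 0.019. Without the libraries holding adipose markers 8 were higher and 6 lower. The D-box activators Dbp, Tef and Hlf and the repressors Nr1d1, Nr1d2, Ciart, Per1, Per3 and Bhlhe41 were higher in the light. The positive limb genes Npas2, Arntl and Clock were lower, as were the repressors Cry1 and Nfil3.

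Promoters are shown because clock genes with the same element moved in opposite directions. An E-box (CACGTG, its own reverse complement) lay within 250 bases before to 50 after a start site in 5 of 16 matched clock genes, against 8.09% of 27025 genes with promoters in RefSeq (GRCm38.p6). The windows below run 5′ to 3′ on the strand of the gene, with the E-box in capitals.
Per1, chr11:69098771-69098800 (plus strand): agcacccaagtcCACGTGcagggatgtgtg
Ciart, chr3:95882269-95882298 (minus strand): cgcagggggaggCACGTGcagaaccgcacg
Tef, chr15:81802534-81802563 (plus strand): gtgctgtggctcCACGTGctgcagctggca
Cry1, chr10:85185097-85185126 (minus strand): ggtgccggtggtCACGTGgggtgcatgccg
Per1, Ciart and Tef were higher in DRF ZT8, as was Bhlhe41, the fifth gene with an E-box, and Cry1 was lower. The D-box TTANGTAA lay in 1 of the 16, Per3, on the gene's own strand (2.72% of genes on either strand).
Per3, chr4:151044852-151044881 (minus strand): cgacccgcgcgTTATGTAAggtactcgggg
The ROR element (AANT followed by AGGTCA, on either strand), which REV-ERB proteins also bind, was found in 1 of the 16, Arntl, against 0.26% of genes. Such matches describe letters in a window and not binding.

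Dbp (chr7:45705088-45710203, GRCm38), a D-box activator and direct E-box target, gave the largest rise. Its level was 200.3, 179, 123 and 134 TPM against 6.13, 4.93, 6.3 and 6.01 TPM. All 4 DRF values stood far above the NRF values, a 27.2-fold difference of the means, and the log2 difference was 4.52 (SE 0.32, adjusted p = 7.23e-15).

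Nr1d1 (chr11:98767932-98775333) encodes REV-ERBα, and its 3′ end overlaps Thra on the other strand, so reads of the overlap are uncertain. It measured 128, 127, 99.9 and 86.4 TPM against 6.62, 5.58, 8.61 and 6.47 TPM, with a log2 difference of 3.83 (SE 0.26, adjusted p = 1.41e-15). Its paralogue Nr1d2 measured 93.9, 94.6, 84.9 and 98.4 TPM against 13.5, 11.3, 14.7 and 12.3 TPM, with a log2 difference of 2.76 (SE 0.15, adjusted p = 4.39e-18). Neither gene overlapped between the groups, and Nr1d2 varied little within each. Ciart, a repressor of CLOCK and BMAL1, measured 29.97, 27.3, 17.99 and 21.3 TPM against 3.66, 2.45, 2.99 and 2.4 TPM, with a log2 difference of 2.68 (SE 0.20, adjusted p = 2.43e-14). Every DRF library was again above every NRF library.

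Among the Period genes, Per3 stood at 27.7, 24.7, 20.7 and 25.02 TPM against 8.57, 6.65, 6.22 and 6.56 TPM without overlap, with a log2 difference of 1.68 (SE 0.21, adjusted p = 6.63e-08). Per1 stood at 35.4, 21.5, 34.05 and 44.04 TPM against 7.4, 13.03, 23.4 and 13.3 TPM, with a log2 difference of 1.24 (SE 0.29, adjusted p = 0.00213). The lowest DRF and the highest NRF library of Per1 overlapped, and without the libraries holding adipose markers the difference was 0.85 (adjusted p = 0.0832). Per2, a repressor of the same family, stood at 35.2, 31.8, 18.4 and 27.05 TPM against 28.8, 29.6, 25.8 and 23.6 TPM. These groups overlapped over most of their range. The log2 difference of Per2 was 0.03 with a 95% interval of -0.33 to 0.39 (adjusted p = 0.951), so a difference inside that interval is not excluded.

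Tef, a relative of Dbp, measured 192, 196, 162 and 182 TPM against 72.3, 65.96, 73.2 and 67.9 TPM, with a log2 difference of 1.37 (SE 0.12, adjusted p = 6.88e-12). Hlf, of the same family, differed less, by 0.42 (SE 0.12, adjusted p = 0.0115). Bhlhe41, an E-box repressor at low level, measured 3.8, 3.38, 2.1 and 2.5 TPM against 1.34, 1.54, 1.42 and 1.19 TPM (0.71, SE 0.17, adjusted p = 0.00292). None of these 3 overlapped between the groups.

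In the positive limb, Npas2 gave 1.05, 0.698, 1.14 and 0.736 TPM against 12.3, 18.7, 10.3 and 13.4 TPM, with a log2 difference of -2.92 (SE 0.18, adjusted p = 9e-17). Arntl gave 1.27, 1.49, 2.95 and 2.07 TPM against 15.4, 21.2, 16.4 and 18.01 TPM, with a log2 difference of -2.69 (SE 0.18, adjusted p = 6.5e-16). In both genes every NRF library exceeded every DRF library. Clock, the partner that NPAS2 can replace, differed less, at 12.4, 11.8, 12.9 and 13.5 TPM against 18.6, 21.3, 18.9 and 18.3 TPM (-0.57, SE 0.12, adjusted p = 0.000389).

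Nfil3, the D-box repressor, ran opposite to Dbp. It measured 6, 6.32, 7.65 and 11.1 TPM against 40.2, 54.5, 47.4 and 35.6 TPM, 5.73-fold lower in DRF ZT8 by the means and without overlap (-2.39, SE 0.19, adjusted p = 1.32e-13). Cry1, which represses CLOCK and BMAL1, measured 6.21, 7.05, 5.42 and 9.29 TPM against 27.7, 25.9, 29.2 and 27.3 TPM, with a log2 difference of -1.86 (SE 0.20, adjusted p = 2.54e-09). It was lower in every DRF library, so the cryptochrome ran against the called Period genes.

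The 4 clock genes not called were Bhlhe40, Cry2, Per2 and Rora, with log2 differences of 0.15, 0.12, 0.03 and 0.13 and 95% intervals of -0.18 to 0.48, -0.15 to 0.38, -0.33 to 0.39 and -0.08 to 0.35. Of 9 genes tested in the list of known clock outputs, 3 were higher and none lower in DRF ZT8 (33.3% called, against 14.3% of all genes). Usp2, a deubiquitinase, gave 139, 145, 111 and 126 TPM against 68.1, 71.5, 83.6 and 66.7 TPM (0.84, SE 0.14, adjusted p = 2.06e-05). The Krüppel-like factors Klf15 (0.81, SE 0.18, adjusted p = 0.00114) and Klf9 (0.38, SE 0.10, adjusted p = 0.00412) were the others. Nampt and Por, of NAD salvage and microsomal electron transfer, were the best expressed members not called, at 0.13 and 0.10.

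**Figure D2:**
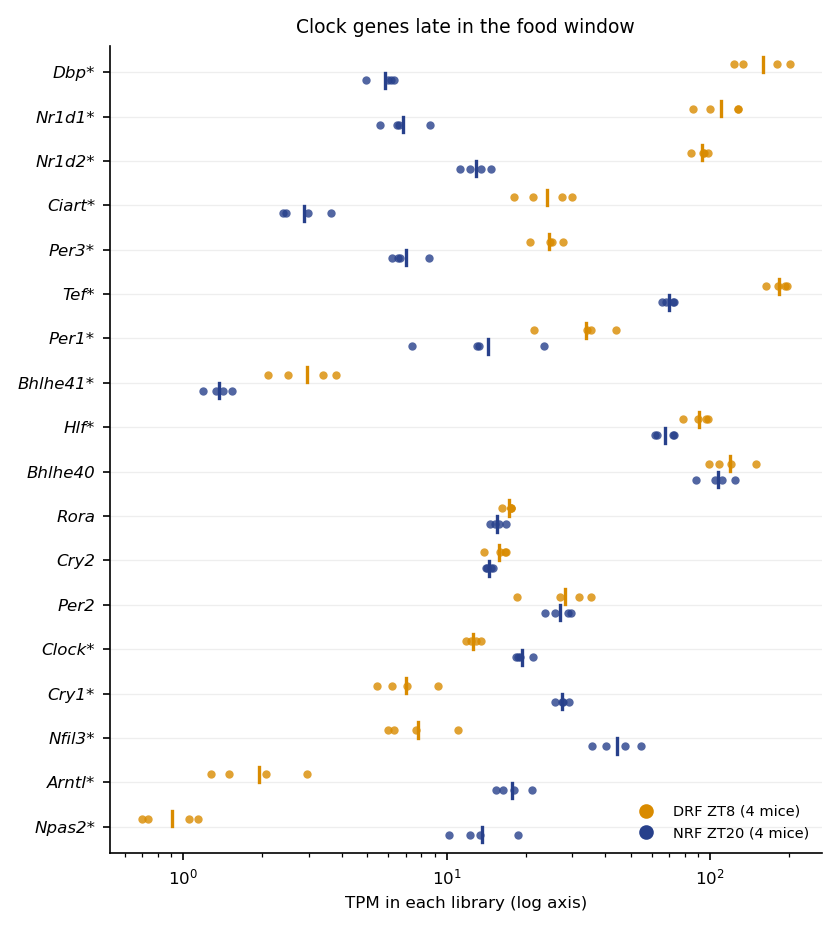
TPM of 18 clock genes on a log axis in the 4 DRF ZT8 libraries (orange) and the 4 NRF ZT20 libraries (blue), with vertical bars at the means and asterisks on genes with an adjusted p under 0.05, ordered by log2 difference. Dbp and Nr1d1 at the top are higher in DRF ZT8 by 4.52 and 3.83 on the log2 scale, Npas2 and Arntl at the bottom are at -2.92 and -2.69, and Per2 and Cry2 overlap.

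Most chaperones of the endoplasmic reticulum (ER) were lower in DRF ZT8. They fold secreted and membrane proteins and are induced together in the unfolded protein response. Of 23 members tested, 17 were lower and 1 higher in DRF ZT8 (78.3% called, against 14.3% of all genes), with a median log2 difference of -0.482. In 19 of the 23 all DRF libraries were below all NRF libraries, against 9.91% of all genes. Median-of-ratios scaling gave 19 lower and 1 higher, and leaving out the libraries holding adipose markers 14 lower and 1 higher.

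The ER stress response element (CCAAT and CCACG with 9 bases between them, on either strand) lay in the promoters of 7 of 19 matched members, Hspa5, Hsp90b1, Dnajc3, Pdia6, Calr, Canx and Creld2, against 0.14% of all genes with promoters. These 7 were all lower in DRF ZT8, and 4 of them are shown with the element in capitals, on the strand of the gene.
Hspa5, chr2:34772020-34772049 (plus strand): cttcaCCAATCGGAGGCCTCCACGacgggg
Hsp90b1, chr10:86705632-86705661 (minus strand): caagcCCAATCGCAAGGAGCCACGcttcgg
Calr, chr8:84847069-84847098 (minus strand): caacgCGTGGTCGACCCTCATTGGcccata
Creld2, chr15:88819515-88819544 (plus strand): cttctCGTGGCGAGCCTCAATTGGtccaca
In Calr and Creld2 the element was read on the opposite strand.

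Hspa5 (chr2:34771970-34777547) encodes BiP, the main ER chaperone of the HSP70 family. Its level was 257, 289, 302 and 318 TPM against 648, 648, 693 and 623 TPM, with a log2 difference of -1.16 (SE 0.15, adjusted p = 1.66e-07). The groups were tight and lay 2.24-fold apart by the means. Sdf2l1, part of the BiP chaperone complex, differed most of the list, at 20.5, 28.2, 33.6 and 21.96 TPM against 78.1, 72.8, 91.2 and 83.9 TPM (-1.63, SE 0.19, adjusted p = 1.1e-08). Creld2, an ER stress-inducible protein, stood at 44.4, 41.4, 45.5 and 39.4 TPM against 109.7, 90.5, 107 and 94.8 TPM (-1.21, SE 0.14, adjusted p = 6.56e-09). Manf, a secreted ER stress factor, stood at 35.4, 37.3, 39.5 and 36.04 TPM against 84.1, 77.1, 81.2 and 73.5 TPM (-1.07, SE 0.16, adjusted p = 4.04e-06). None of these 4 genes overlapped between the groups.

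Calreticulin (Calr), GRP94 (Hsp90b1) and the protein disulfide isomerases Pdia3, Pdia4 and Pdia6 were lower, with log2 differences of -0.81, -0.95, -0.72, -0.60 and -0.80. Xbp1, which drives many of these genes, differed by -0.38 (SE 0.13, adjusted p = 0.0348), and by -0.39 (adjusted p = 0.141) without the libraries holding adipose markers. The exception was Herpud1, which serves ER-associated degradation, at 415, 443, 348 and 400.1 TPM against 212, 227, 261 and 206 TPM and higher in DRF ZT8 (0.82, SE 0.13, adjusted p = 1.63e-05). The 5 members not called were Dnajb9 at 0.29, Sel1l at -0.21, Edem1 at -0.15, Hspa13 at -0.24 and Ddit3, which encodes the stress factor CHOP, at -0.14, with adjusted p of 0.191, 0.125, 0.321, 0.181 and 0.582. Here and below, members of a list beyond its 4 largest calls and its 2 best expressed members not called were picked after their values were seen.

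**Figure D3:**
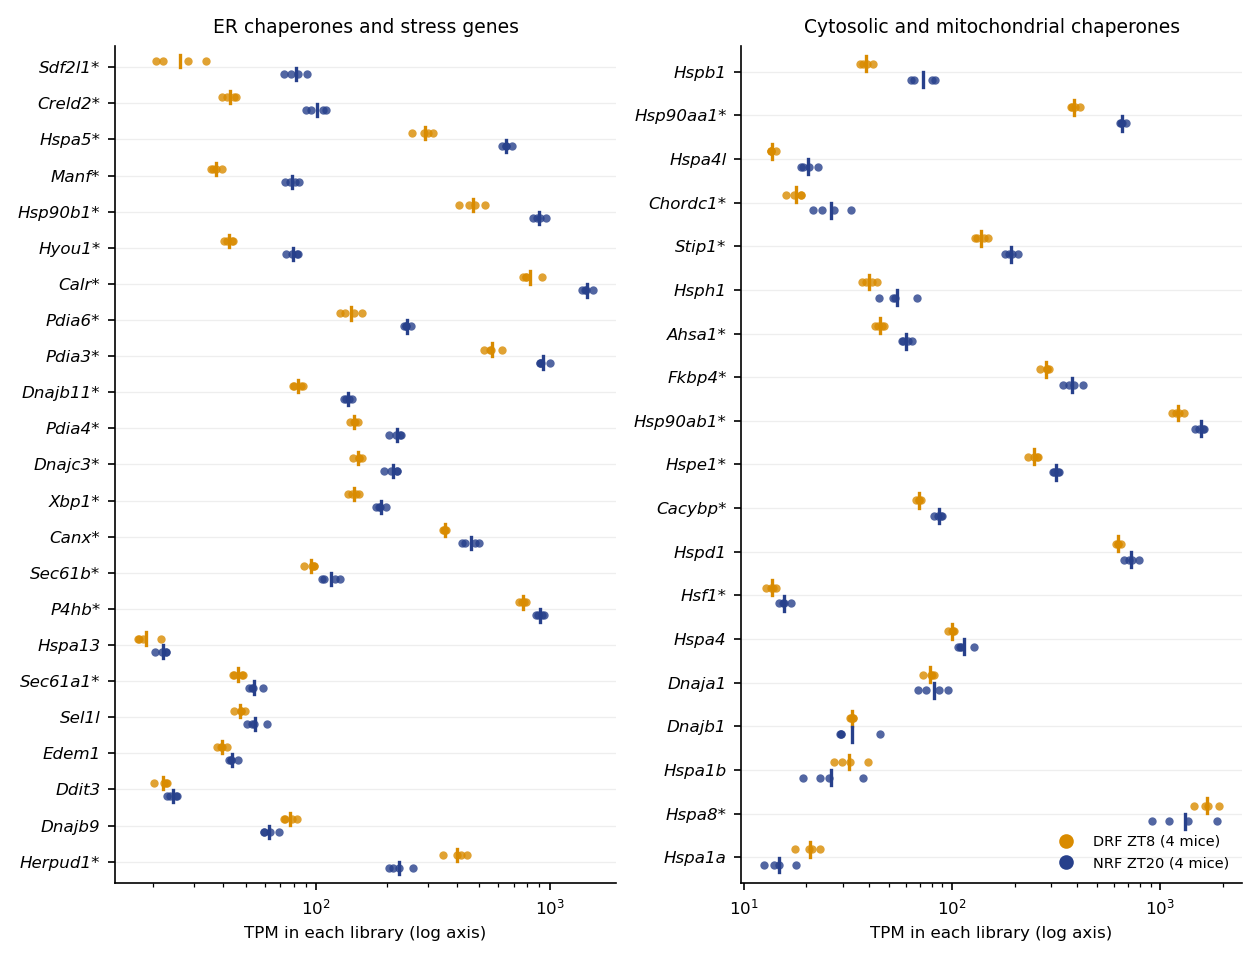
TPM on a log axis of 23 genes of ER folding and stress (left) and 19 cytosolic and mitochondrial chaperones and co-chaperones (right) in the 4 DRF ZT8 (orange) and 4 NRF ZT20 (blue) libraries, with bars at the means and asterisks at an adjusted p under 0.05. Blue lies right of orange for 21 of the 23 ER genes, from Sdf2l1 at -1.63 on the log2 scale, while Herpud1 at the bottom lies the other way at 0.82.

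Cytosolic and mitochondrial chaperones, many of them targets of heat shock factor 1, shared the direction in part. Of 19 tested, 9 were lower and 1 higher in DRF ZT8 (52.6% called, against 14.3% of all genes), with a median of -0.343, and 14 had all DRF libraries below all NRF libraries, against 9.91% of all genes. Without the libraries holding adipose markers 6 were lower and 1 higher. Hsp90aa1, an HSP90 of the cytosol, measured 377, 391, 411 and 372 TPM against 684, 641, 656 and 648 TPM (-0.76, SE 0.13, adjusted p = 4.38e-05). Its co-chaperones were lower as well, Stip1 by -0.48 (SE 0.10, adjusted p = 0.000347), Chordc1 by -0.52 (SE 0.11, adjusted p = 0.000736) and Ahsa1 by -0.42 (SE 0.07, adjusted p = 1.18e-05). The call of Chordc1 ended without the libraries holding adipose markers, at -0.33 (adjusted p = 0.0913). The heat shock element (GAA, TTC and GAA with 2 bases between each, on either strand) lay in promoters of 4 of 15 matched members, against 0.66% of genes. These were Hspe1, Hspd1, Hsph1 and Chordc1. Hspe1 and Hspd1 lie on opposite strands and share the same matched bases, which are thus counted for both genes. Hspb1, a small heat shock protein, stood at 37.6, 41.97, 39.00 and 36.4 TPM against 65.5, 82.7, 80.6 and 63.5 TPM without overlap, but its adjusted p was 0.14.

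Hspa8, the constitutive HSP70, was the 1 member called higher, at 1924, 1703, 1452 and 1635 TPM against 1361, 1876, 1102 and 918 TPM with overlap (0.40, SE 0.13, adjusted p = 0.0282), and was not called under median-of-ratios scaling. The best expressed members not called were Hspd1 and Hspa4, at -0.20 and -0.18, and the near-identical Hspa1a and Hspa1b were at 0.47 and 0.30. Both cold-inducible RNA-binding proteins in the table were higher in DRF ZT8. Cirbp gave 44.3, 45.4, 39.1 and 35.6 TPM against 25.5, 18.9, 24.9 and 25.7 TPM (0.77, SE 0.14, adjusted p = 6.41e-05). Rbm3 gave 77.9, 80.7, 63.9 and 80.3 TPM against 51.2, 40.2, 41.9 and 51.8 TPM (0.70, SE 0.11, adjusted p = 3.97e-06). Neither overlapped between the groups.

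Single genes of fuel metabolism gave wide differences. Of those below, Ppard, Slc16a1 and Slc16a6 were picked as among the 12 largest falls without overlap. Their width and lack of overlap were thus conditions of the choice. Ppard (chr17:28232700-28301474), a lipid-sensing nuclear receptor, measured 12.7, 11.1, 10.8 and 10.2 TPM against 79.99, 62.6, 44.7 and 53.9 TPM, with a log2 difference of -2.30 (SE 0.17, adjusted p = 1.22e-14). The NRF libraries were all far above the DRF libraries, 5.37-fold by the means. Slc16a1, which carries lactate and ketone bodies, measured 14.1, 14.2, 15.9 and 11.6 TPM against 73.6, 74.4, 49.2 and 63.5 TPM (-2.14, SE 0.17, adjusted p = 2.26e-13). Its relative Slc16a6 measured 13.7, 14.6, 11.2 and 12.5 TPM against 48.4, 36.3, 34.2 and 40.4 TPM (-1.54, SE 0.14, adjusted p = 3.25e-11). Pdk4 measured 5.84, 7.59, 10.4 and 14.99 TPM against 16.2, 43.05, 28.98 and 20.7 TPM (-1.38, SE 0.33, adjusted p = 0.00273). The groups of these 3 genes did not overlap, though the highest DRF library of Pdk4 came close to the lowest NRF library.

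Among 25 tested genes of PPARα targets and fatty acid oxidation, 9 were higher and 3 lower in DRF ZT8, against 8.68% and 5.58% of all genes, with a median of 0.044 against 0.019. Cyp4a14, a fatty acid ω-hydroxylase, gave 2079, 1872, 1916 and 1587 TPM against 895, 926, 691 and 744 TPM (1.20, SE 0.17, adjusted p = 1.34e-06). Cyp4a10 gave 1906, 1860.0, 1837 and 1898 TPM against 1156, 1038, 963 and 985 TPM (0.86, SE 0.18, adjusted p = 0.000646). Each DRF library exceeded each NRF library in both genes, but they are close paralogues whose reads can be split between them. Ppara, Cpt1a, Acadvl, Vnn1, Ech1 and Decr1 were also higher, at 0.25 to 0.69, and besides Pdk4 the lower ones were Acsl1 at -0.59 and Slc25a20 at -0.27. Acadm and Ehhadh, of the β-oxidation spiral, differed by -0.21 and 0.06 without a call. Cpt1a, Ech1 and Slc25a20 lost their calls without the libraries holding adipose markers. The PPAR element (AGGTCA on either strand, repeated after 1 base) was found in no promoter of 19 matched members and in 0.05% of genes.

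Of 8 gluconeogenic genes, 1 was lower (12.5% called, against 14.3% of all genes). G6pc, which releases free glucose, measured 496, 643, 583 and 552 TPM against 1512, 1598, 960.3 and 1156 TPM (-1.18, SE 0.21, adjusted p = 4.9e-05), with no overlap. Pck1 and Fbp1, other enzymes of the route, were at -0.26 and -0.08 without a call. In the list of insulin and FOXO targets 4 of 18 were higher and none lower (22.2% called, against 14.3% of all genes). Igfbp1, a FOXO1 target that insulin represses, measured 64.1, 63.7, 80.5 and 65.2 TPM against 19.4, 17.03, 23.4 and 23.98 TPM (1.67, SE 0.22, adjusted p = 1.73e-07). The other 3, the FOXO factors Foxo3 at 0.47 and Foxo4 at 0.21 and the PI3 kinase inhibitor Pik3ip1 at 0.34, lost their calls without the libraries holding adipose markers, and Txnip and Eif4ebp2 were not called (0.23 and 0.13).

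Of 23 genes of cholesterol synthesis and uptake, 8 were lower and 1 higher in DRF ZT8 (39.1% called, against 14.3% of all genes), with a median of -0.254. Idi1, which interconverts the isoprenoid precursors, gave 35.5, 43.7, 35.5 and 34.8 TPM against 73.5, 62.8, 56.4 and 54.1 TPM without overlap (-0.70, SE 0.15, adjusted p = 0.000704). The sterol oxidase Msmo1 differed by -0.58, while Cyp51 and Hmgcs1 were at -0.13 and -0.06 without a call. With the libraries holding adipose markers left out, 1 member was lower and 1, Tmem97, higher, so 7 of the 8 lower calls ended. The part of adipose tissue in these calls was not tested.

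Of 14 lipogenic genes tested, 2 were lower, which at 14.3% is the share called among all genes, and 4 were lower with median-of-ratios scaling. Pnpla3, a lipid hydrolase, stood at 1.51, 1.34, 2.72 and 2.13 TPM against 15.4, 23.6, 9.55 and 9.68 TPM (-2.34, SE 0.76, adjusted p = 0.0303). All NRF libraries were above all DRF libraries, the adipose-marker libraries highest, and without those the difference was -1.88 (adjusted p = 0.00046). The call of Pnpla3 ended with voom weights (adjusted p = 0.0859). It also ended when DRF ZT8 replicate 1, 2 or 4 or NRF ZT20 replicate 1 or 2 was left out alone, with adjusted p of 0.0523 to 0.0986. Fads1, a fatty acid desaturase, differed by -0.54 (SE 0.09, adjusted p = 2.98e-05). Scd2 and Me1 were not called, at -0.29 and -0.24.

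Renal transport differed most in channels of the collecting duct and an amino acid carrier of the proximal tubule. Aqp2 (chr15:99579055-99584547), the vasopressin-regulated water channel of principal cells, measured 956, 912, 787 and 815 TPM against 251, 237, 378 and 319.8 TPM, with a log2 difference of 1.57 (SE 0.39, adjusted p = 0.00385). Every DRF library was well above every NRF library, but the call ended without the libraries holding adipose markers, at 1.31 (adjusted p = 0.0974). Aqp3, the basolateral channel of the same cells, measured 324, 367, 286 and 314 TPM against 165, 152, 146 and 141 TPM (1.08, SE 0.14, adjusted p = 2.14e-07). Other markers of principal cells did not share the direction. Hsd11b2, which protects the mineralocorticoid receptor from glucocorticoids, measured 329, 312, 272 and 279 TPM against 440.0, 365, 356 and 397 TPM (-0.38, SE 0.08, adjusted p = 0.000356), lower in each DRF library. Scnn1g and Fxyd4 were not called, at 0.03 and -0.06, so the principal cell sum was set by the aquaporins.

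Of 12 genes of water and osmolyte handling, 3 were higher and none lower, against 8.68% and 5.58% of all genes. Besides Aqp2 and Aqp3, the third was the taurine transporter Slc6a6 (0.62, SE 0.12, adjusted p = 0.000311). Without the libraries holding adipose markers 2 of the 12 were higher and none lower. Aqp1 and the urea transporter Slc14a2 were not called (0.21 and 0.89). Slc14a2 stood at 16.05, 56.5, 58.6 and 87.4 TPM against 0.114, 35.1, 129 and 82.9 TPM, and inner medulla markers ranged from 97.4 to 202 TPM against 73.2 to 245 TPM. Among 24 genes of sodium and potassium handling, 2 were higher and 3 lower, 20.8% called against 14.3% of all genes. Slc9a3, the apical proton exchanger NHE3, stood at 90.8, 102, 81.03 and 100.2 TPM against 53.7, 72.1, 68.3 and 58.7 TPM (0.56, SE 0.11, adjusted p = 0.000266). Its groups did not overlap. Atp1b1 of the sodium pump differed by 0.28 (SE 0.08, adjusted p = 0.00875). Besides Hsd11b2 the lower members were the sodium channel subunit Scnn1a (-0.33, SE 0.08, adjusted p = 0.00163) and the potassium channel Kcnj10 (-0.25, SE 0.09, adjusted p = 0.0358). Atp1b1, Scnn1a and Kcnj10 lost their calls without the libraries holding adipose markers. Fxyd2, another subunit of the pump, was not called (0.03).

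Of 16 proximal transporters tested, 3 were higher and none lower (18.8% called, against 14.3% of all genes). Slc6a19 (chr13:73679745-73704865), which reclaims neutral amino acids, gave 364, 269.8, 324 and 248 TPM against 92.6, 126, 81.6 and 90.7 TPM (1.62, SE 0.25, adjusted p = 8.93e-06). Its groups lay well apart, whereas proximal tubule markers overlapped. Slc7a9, of cystine uptake, was higher by 0.46 (SE 0.12, adjusted p = 0.00656), and Slco4c1, an organic anion carrier, by 0.88 (SE 0.27, adjusted p = 0.022), the latter without a call once the libraries holding adipose markers were left out (0.69 (adjusted p = 0.265)). Slc22a8, an organic anion transporter, was at -0.12 without a call. Of 7 phosphate and vitamin D genes 1 was lower, which at 14.3% is the share called among all genes. It was Kl, the FGF23 co-receptor, at -0.45 (SE 0.14, adjusted p = 0.0205) and at -0.22 (adjusted p = 0.549) without the libraries holding adipose markers. Slc34a1 and Vdr were not called (-0.01 and -0.19). None of 7 Nat8 family genes was called by limma, and 1 had an unadjusted p under 0.05. Nat8f1 was at -0.16 and Nat8 at -0.31, and their near-identical copies make single values uncertain.

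Among targets of the antioxidant factor NRF2, 5 of 14 were lower and 1 higher (42.9% called, against 14.3% of all genes). Hmox1, which breaks down heme, measured 31.8, 32.2, 26.5 and 28.6 TPM against 106, 158, 168 and 92.3 TPM, with a log2 difference of -2.06 (SE 0.34, adjusted p = 1.82e-05). All DRF values lay far below the lowest NRF value. Gsta4 and Gsr, of glutathione metabolism, differed by -0.68 and -0.48, and Nqo1, a quinone reductase, was higher by 0.47. Gpx3 and Gsta2 were not called (0.09 and 0.04). Hmox1 alone of the list was called without the libraries holding adipose markers.

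Of 14 glucocorticoid targets 4 were higher and none lower (28.6% called, against 14.3% of all genes). Per1 and Klf9 were among them and are also in the clock lists. Dusp1, a MAP kinase phosphatase, stood at 34.7, 35.5, 49.7 and 47.1 TPM against 14.5, 15.9, 20.3 and 23.9 TPM without overlap (1.13, SE 0.27, adjusted p = 0.00249). Zbtb16, a transcription factor, stood at 16.98, 22.04, 4.4 and 5.81 TPM against 2.5, 2.8, 5.38 and 1.72 TPM (1.51, SE 0.46, adjusted p = 0.0196). Zbtb16 overlapped, 2 DRF libraries being high and 2 near the NRF range. The immediate early list of 16 gave 4 higher and 1 lower (31.2% called, against 14.3% of all genes). Higher were the phosphatase Dusp1, the receptor Nr4a1 at 0.81, the AP-1 gene Fos at 0.74 and the RNA-decay factor Zfp36 at 0.74. Myc was lower, at -0.46. With the libraries holding adipose markers left out, none of the 16 was called by limma and of the glucocorticoid targets Klf9 alone was. Mt1 and Errfi1 (0.29 and 0.22), and Ier3 and Klf6 (0.10 and -0.03), were the best expressed members not called.

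Lists of translation and amino acid supply were called in 12.0% to 31.6% of their members, against 14.3% of all genes. Of 19 tRNA synthetases 3 were higher, led by Qars (0.36, SE 0.05, adjusted p = 2.63e-07) with Lars at 0.23 and Sars at 0.17, and 3 lower, Wars at -0.29, Aars at -0.23 and Farsb at -0.22. Nars and Gars were not called (-0.07 and -0.04), and without the libraries holding adipose markers Qars alone was. Among 15 targets of the amino acid response factor ATF4, Atf5 (-0.51) and Sesn2 (-0.36) were lower, Cth (0.31) was higher, and Shmt2 and Atf4 itself were not called (0.01 and 0.07). The calls of Atf5, Sesn2 and Cth ended without the libraries holding adipose markers, with adjusted p of 0.0722, 0.0769 and 0.12, and that of Cth also with median-of-ratios scaling (adjusted p = 0.0523). Without the libraries holding adipose markers 4 other members of this list were called lower and none higher. The median of the list was then -0.37, against -0.291 with all libraries. The count of this list fell to 1 without DRF ZT8 replicate 2 and rose to 5 without NRF ZT20 replicate 2. Of 25 ribosome biogenesis genes Npm1 (0.28) was higher, Heatr1 (-0.36) and Noc3l (-0.35) lower, and Ncl and Pno1 not called (0.14 and -0.17). Heatr1 and Noc3l lost their calls without the libraries holding adipose markers, with adjusted p of 0.159 and 0.142. Median-of-ratios scaling called 9 of the 25, 2 higher and 7 lower, Ncl and Pno1 among them with adjusted p of 0.0337 and 0.0413.

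The largest changes outside the lists included Ell3 and Cyp2d9 among the rises and Ypel2, Loxl4 and Rtl6 among the falls. Ell3, an elongation factor, gave 23.9, 23.1, 23.2 and 19.1 TPM against 8.84, 7.87, 7.6 and 7.32 TPM (1.39, SE 0.18, adjusted p = 1.68e-07). Cyp2d9, from a family of close copies, gave 47.8, 90.8, 38.7 and 58.01 TPM against 18.1, 16.7, 24.1 and 26.00 TPM (1.38, SE 0.35, adjusted p = 0.00519), and 1.13 (adjusted p = 0.149) without the libraries holding adipose markers. Ypel2, of a family of zinc-binding proteins, stood at 9.07, 7.76, 9.71 and 9.83 TPM against 35.3, 37.4, 29.9 and 33.6 TPM (-1.80, SE 0.13, adjusted p = 7.23e-15). Loxl4, a lysyl oxidase, differed by -1.48 (SE 0.38, adjusted p = 0.00485), and Rtl6, derived from a retrotransposon, by -1.42 (SE 0.10, adjusted p = 1.35e-14). All 5 genes had groups without overlap, as their selection required.

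The difference between ZT8 and ZT20 was also taken late in the fast, as NRF ZT8 minus DRF ZT20, from 8 libraries that the late meal does not share. There 1645 genes (12.3%) differed, 1062 (7.95%) higher and 583 (4.36%) lower at ZT8. Of the 1905 late-meal calls, 591 were called at the late fast too, 569 in the same direction (29.9% of late-meal and 34.6% of late-fast calls) and 22 in the opposite one. A test of the difference between the late meal and the late fast called 476 genes (3.56%), 193 (1.44%) positive and 283 (2.12%) negative. Of the late-meal calls, 258 (13.5%) were among them. The late-meal contrast is a term of this difference and shares its libraries, so that share is not independent of the late-meal calls. By its terms this difference is also DRF minus NRF at ZT8 plus DRF minus NRF at ZT20. Dependence on the meal therefore cannot be told apart here from an effect of the regimen present at both times.

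NRF ZT8 held libraries with a high interferon response. The 24 tested interferon response genes summed to 1798, 847.5, 3398 and 2927 TPM in its 4 libraries, against 470.5 to 652.6 TPM in DRF ZT8, 475.9 to 558.3 TPM in NRF ZT20 and 438.7 to 592 TPM in DRF ZT20. At the late fast 22 of the 24 were higher, against 7.95% of all genes. At the late meal none of the 24 was called by limma and 0 had an unadjusted p under 0.05, with a median of 0.140. Fitted by limma with only the 2 groups of the late meal, 5 of the 24 were called higher, among them Igtp at 0.56 (adjusted p = 0.0382). In that fit Tgtp1, 630751 and Gbp6, which are not in the list, were called too. They stood at 0.89 (adjusted p = 0.0289), 0.67 (adjusted p = 0.0361) and 0.46 (adjusted p = 0.0498). Leaving out every library above 1500 TPM for that list kept 1 NRF ZT8 library, whose spread was taken as that of the other groups, and gave 313 late-fast calls and 51 for the difference. Leaving out the libraries holding adipose markers, among them 2 of DRF ZT20, gave 32 for the difference.

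Clock genes were alike at both stages in the counts. At the late fast 9 were higher and 5 lower of 19, against 7.95% and 4.36% of all genes. Dbp differed there by 3.79 (SE 0.32, adjusted p = 3.42e-12), Nr1d1 by 3.16 (SE 0.26, adjusted p = 1e-12), Arntl by -2.54 (SE 0.18, adjusted p = 5.62e-15) and Nfil3 by -2.05 (SE 0.19, adjusted p = 2.96e-11). The difference between the stages was called for 2 of the 19, against 3.56% of all genes. These were Nr1d2 (1.05, SE 0.22, adjusted p = 0.00324) and Per2 (-0.87, SE 0.25, adjusted p = 0.0426). Nr1d2 measured 91.1, 100.0, 88.5 and 109 TPM in NRF ZT8 and 24.2, 23.8, 31.1 and 38.8 TPM in DRF ZT20. Per2 measured 18.9, 19.03, 16.5 and 26.8 TPM in NRF ZT8 and 9.22, 7.69, 13.03 and 12.1 TPM in DRF ZT20. Late in the fast Per2 was thus higher at ZT8 in all 4 libraries, whereas late in the meal its groups overlapped. Both differences between the stages missed the threshold without the interferon-high libraries, with adjusted p of 0.0933 and 0.347. They also missed it without the libraries holding adipose markers, at 0.91 (adjusted p = 0.149) and -0.78 (adjusted p = 0.433).

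The ER chaperones differed between the stages in 8 of 23 members, all more negative at the late meal, against 2.12% of all genes. At the late fast 5 were lower, against 4.36% of all genes, and 1, Herpud1, higher (0.95, SE 0.13, adjusted p = 1.29e-06). Creld2 stood at 38.7, 40.2, 50.1 and 40.3 TPM in NRF ZT8 and 43.2, 39.5, 41.00 and 34.4 TPM in DRF ZT20, near the level of DRF ZT8, so of these 4 groups NRF ZT20 alone was high. The difference between the stages was -1.31 (SE 0.19, adjusted p = 7.07e-05). It was -1.28 (adjusted p = 0.0221) without the adipose-marker libraries and -1.24 (adjusted p = 0.0142) without the interferon-high ones. Hspa5 stood at 262, 248, 274 and 306 TPM in NRF ZT8 and 353, 315, 351 and 339 TPM in DRF ZT20, with a difference of -0.84 (SE 0.21, adjusted p = 0.0164). That call ended in both of those fits, at -0.88 (adjusted p = 0.168) and -0.71 (adjusted p = 0.292). The other 6 members called, Manf, Dnajb11, Hyou1, Pdia3, P4hb and Sec61a1, likewise missed the threshold in both fits, so 1 of the 8 calls, that of Creld2, stood in each.

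Cyp4a14 was higher at ZT8 late in the meal and lower late in the fast, at 1428, 1987, 1463 and 2114 TPM in NRF ZT8 and 3062, 2086, 2628 and 2179 TPM in DRF ZT20 (-0.51, SE 0.17, adjusted p = 0.0384). The difference of 1.71 (SE 0.24, adjusted p = 3.38e-05) stayed called without the adipose-marker libraries, at 1.81 (adjusted p = 0.00962), and without the interferon-high ones, at 1.51 (adjusted p = 0.0166). Ppard was lower at ZT8 at both stages, more so late in the meal (-1.28, SE 0.23, adjusted p = 0.00113), and Slc16a6 likewise (-0.98, SE 0.20, adjusted p = 0.00304). Without the adipose-marker libraries these were -0.97 (adjusted p = 0.0548) and -0.92 (adjusted p = 0.0702), and without the interferon-high ones -1.13 (adjusted p = 0.0579) and -0.94 (adjusted p = 0.0957). In the collecting duct Aqp3 was more positive late in the meal (0.69, SE 0.20, adjusted p = 0.0406), and Hsd11b2 (-0.50, SE 0.11, adjusted p = 0.00547) and Scnn1a (-0.39, SE 0.11, adjusted p = 0.0298) more negative. These 3 calls ended without the adipose-marker libraries, with adjusted p of 0.252, 0.16 and 0.415, and without the interferon-high ones, with 0.291, 0.0957 and 0.424. Of the 23 cholesterol genes 5 were more negative late in the meal, against 2.12% of all genes. At the late fast none of the 23 was lower and 1 was higher. None of the 23 was called for the difference between the stages by limma in either of those fits.

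Other large positive differences between the stages were Hbb-bt, a haemoglobin chain with close copies, at 1.98 (SE 0.57, adjusted p = 0.0402), Apoa2, an apolipoprotein, at 1.74 (SE 0.46, adjusted p = 0.0217), and Vwa2, a matrix protein, at 1.36 (SE 0.30, adjusted p = 0.00457). Each of these 3 missed the threshold without the adipose-marker libraries and without the interferon-high ones. Blood markers, of which 2 of 5 had reads, summed to 231 to 437 TPM in DRF ZT8, 128 to 252 TPM in NRF ZT20, 24.8 to 164 TPM in NRF ZT8 and 114 to 212 TPM in DRF ZT20, and their part in the result for Hbb-bt was not tested. The 5 largest negative differences were the interferon-inducible GTPases Tgtp1, Igtp, Iigp1 and Gbp6, which have close copies, and the gene listed as 630751, at -2.45 to -3.13. None of these 5 was called without the interferon-high libraries, with adjusted p of 0.519 to 0.763.

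**Figure D4:**
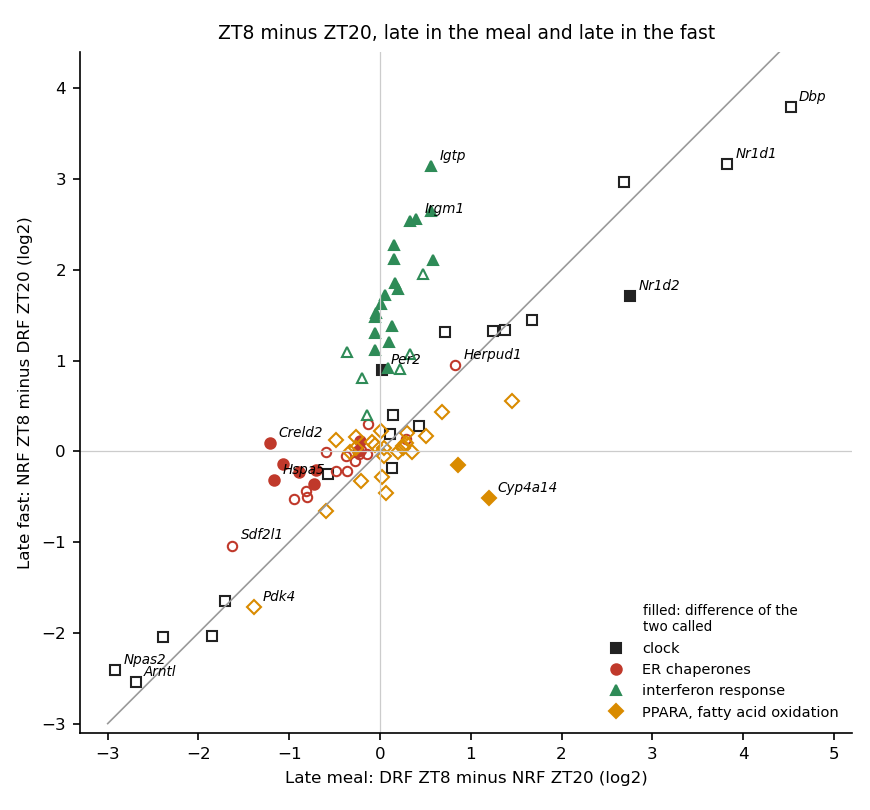
Log2 difference between ZT8 and ZT20 late in the meal (horizontal) and late in the fast (vertical) for tested genes of 4 lists, with the grey line at equal differences and filled symbols where the difference between the 2 stages had an adjusted p under 0.05. Clock genes lie along the line from Npas2 to Dbp, interferon genes rise vertically near 0 on the horizontal axis, and Creld2 and Hspa5 lie left of it at -1.21 and -1.16.

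Time within the meal was asked with the earlier pair, DRF ZT4 minus NRF ZT16, also from other libraries. It gave 2268 calls (17%), 1688 (12.6%) higher and 580 (4.34%) lower. The late-meal calls shared 384 with it in the same direction (20.2% of late-meal calls, 16.9% of early-meal calls) and 141 in the opposite one. The difference between the late and the early meal was called for 1594 genes (11.9%), 678 (5.08%) positive and 916 (6.86%) negative. Among them were 714 (37.5%) of the late-meal calls, a share that is not independent, since the late-meal contrast is a term of the difference. The difference was called for 577 genes without the libraries holding adipose markers, which included 2 of NRF ZT16.

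Clock genes differed widely between the meal times. Of 19, 12 were more positive and 4 more negative late than early in the meal, against 5.08% and 6.86% of all genes. Without the libraries holding adipose markers 7 were more positive and 2 more negative. Nr1d2 stood at 63.9 ± 7.71 TPM (SD, n = 4) in DRF ZT4 and 66.97 ± 8.55 TPM (SD, n = 4) in NRF ZT16, a log2 difference of -0.07 (SE 0.15, adjusted p = 0.832). Its late minus early difference was 2.82 (SE 0.22, adjusted p = 4.71e-13). Dbp was already higher in the light at 1.06 (SE 0.32, adjusted p = 0.0161), and the late minus early difference was 3.46 (SE 0.45, adjusted p = 4.89e-07). Cholesterol synthesis ran the other way. Early in the meal 17 of 23 genes were higher and none lower in the light, against 12.6% and 4.34% of all genes. Without the libraries holding adipose markers 14 were higher. Slc16a1 was at 0.03 (SE 0.17, adjusted p = 0.938) early in the meal and its late minus early difference was -2.17 (SE 0.24, adjusted p = 1.01e-08). Slc16a6 was higher in the light early in the meal (0.89, SE 0.14, adjusted p = 1.73e-05), and its late minus early difference was -2.43 (SE 0.20, adjusted p = 3.98e-12). The 23 ER chaperones gave 2 higher and 5 lower early in the meal, against 12.6% and 4.34% of all genes. Fkbp5, a glucocorticoid target, was lower in the light early in the meal (-1.73, SE 0.29, adjusted p = 3.36e-05) and not called late in it (0.55, SE 0.29, adjusted p = 0.221), with a late minus early difference of 2.28 (SE 0.41, adjusted p = 0.000128). Other large late minus early differences were Tgtp1 at 2.58 and Iigp1 at 2.13, and the predicted genes Gm38481 at -2.60 and Gm3776 at -2.22. Tgtp1 and Iigp1 missed the threshold without the libraries holding adipose markers (adjusted p of 0.143 and 0.249). The interferon list summed to 1354, 871, 676.6 and 524.2 TPM in NRF ZT16 and to 400.9 to 536.8 TPM in DRF ZT4. Of NRF ZT16, the libraries holding adipose markers were those at 1354 and 871 TPM, and the part of either in these calls was not tested. Levels of 630751 and Gm38481 rest on an assumed length.

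Over the day the late-meal times met the rhythms at different points. Dbp in DRF peaked at ZT8 (159 ± 36.7 TPM, SD, n = 4), while in NRF it peaked at ZT12 (232 ± 15.04 TPM) and was at 5.84 ± 0.618 TPM at ZT20. Hspa5 had its highest DRF mean at ZT4 (817 ± 189 TPM) and its highest NRF mean at ZT16 (1025 ± 138 TPM), each 4 h before the late-meal time of that regimen, and DRF had another high mean at ZT16 (712 ± 82.5 TPM). By the late meal it was at 291 ± 25.8 TPM in DRF and 653 ± 28.9 TPM in NRF. Ppard in NRF peaked at ZT0 (78.6 ± 25.4 TPM) and stood at 60.3 ± 15.03 TPM at ZT20, whereas its highest DRF mean was 26.3 ± 5.24 TPM, at ZT24. Aqp2 had its highest DRF mean at ZT8 (867 ± 79.7 TPM), and its SD reached 419.6 TPM in DRF ZT4.

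**Figure D5:**
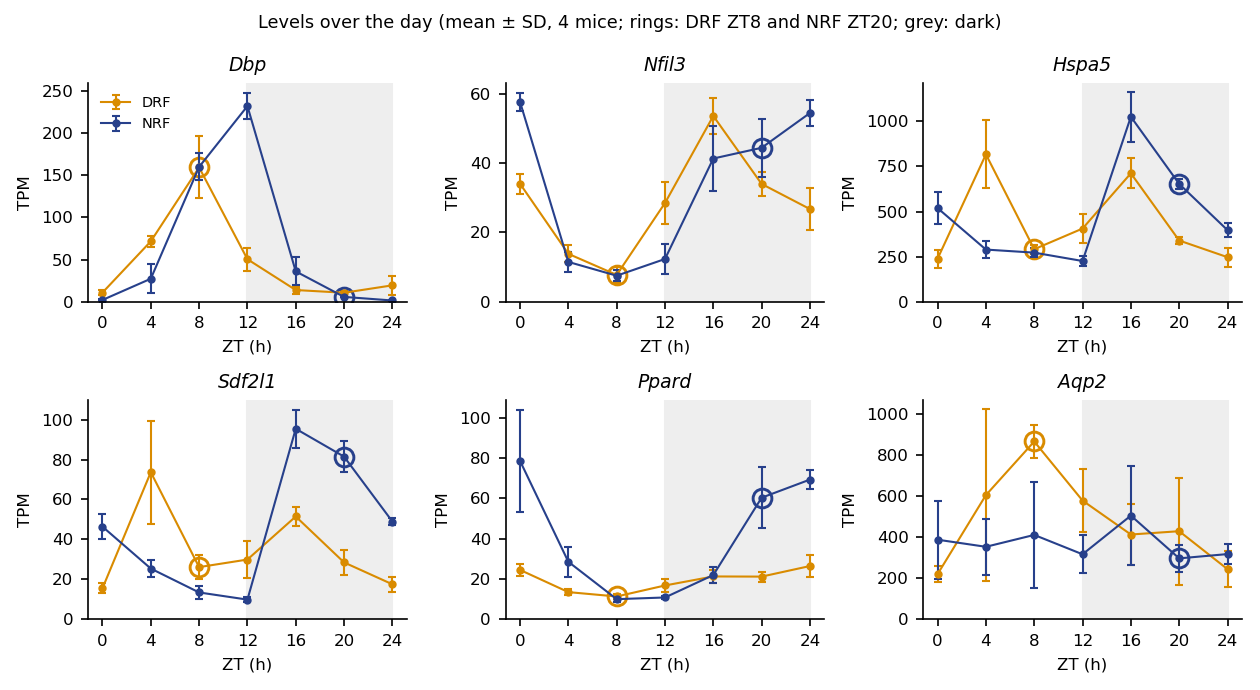
Mean TPM ± SD (4 mice a point) against zeitgeber time in hours for Dbp, Nfil3, Hspa5, Sdf2l1, Ppard and Aqp2 under DRF (orange) and NRF (blue), with the dark phase in grey and rings on DRF ZT8 and NRF ZT20. At the rings Dbp is high in DRF and low in NRF, Nfil3 and Ppard the reverse, and Hspa5 stands at 291 TPM in DRF and 653 TPM in NRF.

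The regimens were also compared at the same clock time, DRF ZT8 minus NRF ZT8, which shares the DRF ZT8 mice and is set beside the late-meal values only. It called 2082 genes (15.6%), 762 (5.70%) higher and 1320 (9.88%) lower in DRF, and 237 without the interferon-high libraries. Dbp differed by -0.03 (SE 0.32, adjusted p = 0.969) against 4.52 late in the meal, Arntl by 0.19 (SE 0.18, adjusted p = 0.509) against -2.69 and Nfil3 by 0.02 (SE 0.19, adjusted p = 0.959) against -2.39. Hspa5 differed by 0.10 (SE 0.15, adjusted p = 0.714) against -1.16, and Ppard by 0.17 (SE 0.17, adjusted p = 0.537) against -2.30. Pdk4 differed by -3.16 (SE 0.33, adjusted p = 2.96e-09) against -1.38, Slc16a1 by -1.04 (SE 0.17, adjusted p = 1.55e-05) against -2.14, and Sdf2l1 by 0.92 (SE 0.19, adjusted p = 0.000441) against -1.63.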

How the data were processed

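Messenger RNA of whole mouse kidney was sequenced in 56 libraries, 4 mice in each of 14 groups. The submitters' processing notes name HISAT2, Bowtie2 and RSEM and the builds mm10 and GRCm38.p6, and the strand setting of the counting is not given in the sources used here. The values deposited by the authors are described as TPM but fitted a rounded score, the log2 of 1 plus a scaled read count, divided by gene length and rescaled in each sample to a common total. The plan was to rebuild TPM on a linear scale in that case, and otherwise to use the deposited TPM. Reads were therefore recovered from the score for 16618 of 17027 genes (97.6%) with GENCODE M21 exon lengths, 319 genes taking an assumed length, and TPM was rebuilt on a linear scale. Of the values above 0 in genes with whole-read steps, 99.86% were whole reads within 0.05 of a read.

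The 13358 genes with a mean of at least 1 TPM were fitted as log2(TPM + 1) in all 14 groups with limma 3.58.1 (trended variance, R 4.3.3), and p-values were Benjamini-Hochberg adjusted over all genes with a threshold of 0.05. A log2 difference is on the log2(TPM + 1) scale, which understates low genes, and its SE comes from the same fit. The late-meal contrast was DRF ZT8 minus NRF ZT20. Gene groups were described by counts and medians without a set test. The members and gene lists were chosen with earlier results of these data known. Genes named are the clock list, the 12 largest rises and falls among calls of at least 10 TPM without overlap, up to 4 called and 2 uncalled members of each other list, and the 5 largest differences between contrasts in each direction. A few of these genes are counted in the lists but are not reported here. The steps were tested on simulated data. Alternatives were other scalings, pseudocounts and filters, voom weights, a replicate block, a minimum of 1.5-fold and leaving out single libraries. Leaving out libraries with adipose markers above 100 TPM or an interferon list above 1500 TPM was chosen after seeing the data. Replicates of the 2 groups correlated at 0.985 to 0.995. Their squared differences were, at the median over genes, 3.05 to 6.48 times those of counting noise alone. The labels do not say whether the replicates were extracted separately.

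Replicate numbers were checked for pairing. Deviations of same-numbered DRF ZT8 and NRF ZT20 libraries correlated at -0.006 to 0.345, so the numbers were not taken as pairs. Sequences come from RefSeq promoters of GRCm38.p6, coordinates of genes from GENCODE M21 on GRCm38. Python 3.11.15 with numpy 2.4.6, pandas 2.3.3, scipy 1.17.1 and matplotlib 3.10.9 was used for the remaining steps.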

Additional observations from a re-analysis of the deposited data

Results flagged for a closer look

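Single libraries stood apart from the other 3 of their group in 11 of 260 sets of 4 values examined by Dixon's test, and chance alone flags about 1 in 20 sets. In NRF ZT20 replicate 2, Apoa2 was at 80.7 TPM (next 40.03), Hspa4 at 128 TPM (next 111), Qars at 36.4 TPM (next 34.2) and Cirbp at 18.9 TPM (next 24.9). In NRF ZT20 replicate 3, Nars was at 96.2 TPM (next 99.4). In DRF ZT8 replicate 3, Atp1b1 was at 3423 TPM (next 3710.2), Rbm3 at 63.9 TPM (next 77.9), Rora at 16.2 TPM (next 17.5) and Igfbp1 at 80.5 TPM (next 65.2). In DRF ZT8 replicate 2, Idi1 was at 43.7 TPM (next 35.5), and in replicate 4 Ell3 was at 19.1 TPM (next 23.1). NRF ZT20 replicates 1 and 2 are the libraries with adipose markers.

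The difference between ZT8 and ZT20 was unlike late in the meal and late in the fast for 476 genes by a test of that difference (limma, Benjamini-Hochberg). On the log2 scale the largest differences included 1.98 for Hbb-bt, 1.74 for Apoa2, 1.71 for Cyp4a14 and 1.36 for Vwa2, and -3.13 for 630751, -2.75 for Tgtp1, -2.58 for Igtp, -2.47 for Iigp1 and -2.45 for Gbp6. Leaving out the interferon-high libraries, 3 of them from NRF ZT8, ended 8 of these 9 calls, and Cyp4a14 kept its call.

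The difference was unlike late and early in the meal for 1594 genes. The largest included 3.46 for Dbp, 2.82 for Nr1d2, 2.58 for Tgtp1, 2.28 for Fkbp5 and 2.13 for Iigp1, and -2.60 for Gm38481, -2.43 for Slc16a6, -2.22 for Gm3776 and -2.17 for Slc16a1.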

How the results depend on the processing

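Of 137 genes named with a late-meal test, 84 were called, and 50 of these kept call and direction under every alternative run. Without the libraries holding adipose markers 96 of the 137 were unchanged in direction and call, 33 lost the call and 8 changed sign, and without the interferon-high libraries 133, 3 and 0, with 1 gained. The design limits what the smaller sets can show, since the first leaves 2 NRF ZT20 libraries and the second 1 NRF ZT8 library, assumed to vary like the other groups. Loss of a call with fewer libraries is no measure of a smaller difference, and the cause was not tested.

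Without the libraries holding adipose markers the late meal gave 884 genes (603 higher, 281 lower), the late fast 1059, late meal minus late fast 32, the early meal 1474 and late minus early meal 577. Without the interferon-high libraries the late fast gave 313, late meal minus late fast 51 and the same clock time 237. Median-of-ratios scaling gave 1192 genes lower in DRF ZT8 and 737 for late meal minus late fast, and the study's library sizes gave 1143 lower. Fits of only the groups compared gave 379 for the late fast, 151 for late meal minus late fast and 973 for the early meal. With a minimum of 1.5-fold, the late meal gave 309 (148 higher, 161 lower), the late fast 429, late meal minus late fast 226, the early meal 323, late minus early meal 574 and the same clock time 475. Leaving out single libraries, late meal minus late fast ranged from 285 to 503, falling to 285 without NRF ZT20 replicate 1 and 303 without replicate 2, and the late meal from 1383 to 1611.

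Leaving out 1 library of either late-meal group ended calls of Aars, Atf5, Atp1b1, Cth, Fos, Foxo3, Foxo4, Kl, Lars, Nqo1, Nr4a1, Pik3ip1, Pnpla3, Sesn2, Slco4c1, Wars and Zbtb16 at least once, with adjusted p of 0.0515 to 0.216. Median-of-ratios scaling gained calls for Hspd1, Ncl, Pno1 and Sel1l.

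A replicate block, with the number of the labels as a factor, gave 1884 late-meal genes. Same-numbered libraries did not deviate together, 2 of 4 correlating best with their own number.

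Sign changes touched uncalled genes only. Shmt2 went to -0.013 with median-of-ratios scaling and -0.009 with the study's library sizes. Without the libraries holding adipose markers Ehhadh was at -0.014, Fbp1 at 0.03, Fxyd2 at -0.011, Hmgcs1 at 0.027, Klf6 at 0.003, Slc14a2 at -1.13, Slc22a8 at 0.05 and Slc34a1 at 0.174. Leaving out single libraries, Ehhadh ranged from -0.023 to 0.111, Fxyd2 from -0.006 to 0.097, Gpx3 from -0.015 to 0.21, Gsta2 from -0.061 to 0.148, Ier3 from -0.018 to 0.211, Klf6 from -0.072 to 0.012, Per2 from -0.09 to 0.208, Shmt2 from -0.041 to 0.082, Slc14a2 from -0.62 to 1.668 and Slc34a1 from -0.102 to 0.09.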

Other observations

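Among genes taken as cell type markers, and thus seen after the fact, parts of the distal nephron and a liver transcript differed late in the meal. Trpm6, a magnesium channel of the distal convoluted tubule, stood at 12.1, 9.72, 9.33 and 10.1 TPM in DRF ZT8 and 19.8, 19.96, 13.998 and 14.7 TPM in NRF ZT20 (log2 difference -0.67, SE 0.13, adjusted p = 0.000221 by limma). Pvalb, a calcium-binding protein of the same segment, stood at 99.3, 80.1, 77.5 and 72.3 TPM in DRF ZT8 and 147, 113, 105 and 131 TPM in NRF ZT20 (-0.59, SE 0.16, adjusted p = 0.0106 by limma). Both were lower in every DRF library. Fgb, a fibrinogen chain, averaged 1.81 TPM in DRF ZT8 and 6.68 TPM in NRF ZT20 (-1.38, SE 0.30, adjusted p = 0.00099 by limma). These 3 calls ended without the libraries holding adipose markers, with adjusted p of 0.0805, 0.086 and 0.059.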
